A study of Mus musculus with 15 samples.

Results

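The oligodendrocyte lineage and myelin genes were examined as 34 named genes of the 53801 in a count table, each matched to 1 gene ID by its mouse symbol. They were divided by the stage at which they are best known into 7 genes of the precursor stage (Olig1, Olig2, Sox8, Sox10, Nkx2-2, Pdgfra and Cspg4), 6 genes of the transition from committed precursor to premyelinating cell (Gpr17, Enpp6, Bcas1, Zfp488, Myrf and Nkx6-2) and 21 late genes. The late genes comprised 10 myelin sheath and cytoplasmic proteins (Mbp, Mog, Mag, Cnp, Mobp, Cldn11, Mal, Opalin, Ermn and Tspan2), 4 enzymes tied to myelin lipids (Ugt8a, Fa2h, Gal3st1 and Aspa) and 7 other genes of mature cells (Enpp2, Lpar1, Gpr37, Sirt2, Cntn2, Trf and Tmem88b). The study sequenced RNA from primary adult neural stem cells (aNSCs), isolated from the subventricular zone and grown in suspension, and the mice were 2 months old and of the strain C57BL6/J-129sv. All 10 mice carried Rosa26-CreERT2, a Cre recombinase expressed from a ubiquitous locus and activated by 4-hydroxytamoxifen (4-OHT), and were Trrap Fl/+, with 1 floxed allele, or Trrap Fl/Fl, with both alleles floxed. The 3 groups of libraries, 5 in each, were Fl/+ untreated, Fl/+ 4-OHT and Fl/Fl 4-OHT cultures, and both Fl/+ groups came from mice 19, 24, 26, 35 and 36, whereas the Fl/Fl cultures came from mice 27, 28, 29, 37 and 39. Treated cultures were collected after 5 days, 4-OHT also activates the recombinase in the Fl/+ cultures, which carry 1 floxed Trrap allele, and by the labels 3 mice of each group were male and 2 female. No Fl/Fl culture without 4-OHT was among the 15.

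Oligodendrocytes are the myelin-forming cells of the central nervous system. They arise from precursors that are marked by the receptor Pdgfra and the proteoglycan Cspg4 (NG2) and that depend on the transcription factors Olig2, Sox10 and Nkx2-2, and the subventricular zone gives rise to such precursors throughout life. On leaving the cell cycle the cells pass through a short state with high Gpr17 and Bcas1, the factor Myrf then switches on the myelin genes, and the mature cell makes the sheath proteins, the galactolipids and the iron carrier transferrin. Trrap is a scaffold of histone acetyltransferase complexes. The comparisons ask how far this programme differed with 4-OHT in Fl/+ cultures and with deletion of both Trrap alleles.

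The libraries held 25720034 to 32187097 counts assigned to genes. Values are counts-per-million (CPM) scaled by the trimmed mean of M-values (TMM), given as mean ± SD with n = 5 cultures per group. Trrap itself was at 190.1 ± 14.3 CPM in untreated Fl/+, 164 ± 26.4 CPM in Fl/+ 4-OHT and 104 ± 24.2 CPM in Fl/Fl 4-OHT cultures, with an adjusted p of 0.0115 between the last 2 groups (edgeR quasi-likelihood test, adjusted over all genes tested by Benjamini and Hochberg). Between the Fl/+ groups its log2 fold change was -0.21 ± 0.11 (SE, adjusted p = 0.234) and their ranges overlapped, and Fl/Fl 29 was within the Fl/+ 4-OHT range at 142 CPM. These levels do not show that the deletion was complete in every Fl/Fl culture. Fl/Fl 37 stood apart from the other Fl/Fl cultures: it was the highest of the 5 for 18 of the 21 late members and 4 of the 6 transition members. Fl/Fl 39 is labelled female but held 54.03 CPM of the Y-linked Ddx3y and 0.313 CPM of Xist, and Fl/+ 36, labelled male, held 74.7 CPM of Xist beside 52.9 CPM of Ddx3y after 4-OHT. The untreated culture of mouse 36 held 5.89 CPM of Xist beside 47.7 CPM of Ddx3y. The neural stem cell markers were present in every library, with the filament gene Nes at 489 CPM or more. Of the 10 markers of these cells, 4 were lower with Trrap deletion (Fabp7, Hes5, Prom1 and Sox2), against 15.0% of all genes. In bulk RNA, fewer cells of a type and less RNA per cell cannot be told apart.

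Before any treatment the lineage genes spanned a wide range of levels. Per kilobase of exon, Olig1, a basic helix-loop-helix factor of the lineage, was the most abundant member in untreated cultures at 1129.6 ± 95.8 CPM per kb, followed by its partner Olig2 at 328 ± 20.8 and Sox8 at 197 ± 63.6 CPM per kb. The other 4 precursor genes were lower, with Nkx2-2 at 12.7 ± 3.0041, Sox10 at 8.22 ± 6.28, Cspg4 at 7.51 ± 1.89 and Pdgfra at 6.62 ± 3.08 CPM per kb. Among late genes, Cnp, a phosphodiesterase of the non-compact myelin, was at 109 ± 41.6 CPM per kb and the deacetylase Sirt2 at 77.4 ± 30.01 CPM per kb, and their ranges over the 5 cultures overlapped. The transition receptor Gpr17 was at 61.1 ± 46.01 CPM per kb. Of the structural myelin genes, Mbp was at 1.92 ± 1.97, Cldn11 at 2.91 ± 1.29, Mag at 0.248 ± 0.267 and Mobp at 0.145 ± 0.0881 CPM per kb. Mog had 3 counts in all over the 5 untreated libraries and Ermn had 8, so that both lay near the limit of detection, where 3 counts in a library correspond to 0.0932 to 0.117 CPM. By their means, Cnp thus lay above 4 of the 7 precursor genes.

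4-OHT treatment of Fl/+ cultures went with higher levels of 6 myelin sheath genes that were measured in both groups, of Mog, which was almost absent from the untreated libraries, and of 3 precursor genes. A log2 fold change is given as estimate ± SE, and a gene is called where its adjusted p is under 0.05. Ermn had too few counts to be tested, and Mog passed the filter on low counts through the treated libraries alone, so that it had to differ and is left out of the counts against untreated cultures. In edgeR's quasi-likelihood test 11 of the other 32 members were called, 10 higher and 1 lower, whereas 13.8% of all 14821 genes tested were called, 7.34% higher and 6.45% lower. The 32 included 8 sheath genes, of which 6 were called higher (Mbp, Mag, Mobp, Cldn11, Mal and Tspan2), and the median log2 fold change of the 8 was 1.67, against -0.011 over all genes. Sox10, Pdgfra and Cspg4 were called higher among the 7 precursor genes, none of the 6 transition genes was called, and the lone fall was that of Aspa. With the mouse as a block, 14 of the 32 were called, 11 higher and 3 lower, against 25.7% of all genes, 13.8% higher and 11.9% lower. The members added by the block were Olig1 and Sox8, both lower, and Trf, higher.

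Fl/Fl 4-OHT against Fl/+ 4-OHT cultures, the comparison for Trrap deletion, gave few calls among the lineage genes, and it shares the Fl/+ 4-OHT libraries with the 4-OHT comparison. Mobp, Gal3st1 and Sirt2 passed the threshold, all 3 higher in Fl/Fl cultures, out of 33 members tested. Over all 15036 genes tested 31.7% were called, 16.8% higher and 15.0% lower, a share above the 3 of 33 members. No precursor gene and no transition gene was called. The 20 late genes tested had a median log2 fold change of 0.91, but of 0.14 without Fl/Fl 37, beside 0.017 over all genes. Without Fl/Fl 37, 6 members were called against 29.2% of all genes. The 3 risers remained, and Sox10, Lpar1 and Gpr37 were then called lower. Without Fl/+ 4-OHT 19, 5 members were called, all of them higher, with Mog and Trf added, against 24.8% of all genes. Gpr37 was called lower without Fl/+ 4-OHT 24, and Gpr17 higher without Fl/+ 4-OHT 26 or Fl/Fl 39.

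Fl/Fl 4-OHT cultures were also compared with untreated Fl/+ cultures, a contrast that joins the treatment to the Fl/Fl genotype and shares its libraries with the other 2. Here 16 of the 32 members other than Mog and Ermn were called, 13 higher and 3 lower, against 30.7% of 15032 genes, 15.7% higher and 15.1% lower. The 3 falls were Olig1, Sox8 and Aspa. Of the 8 sheath genes among the 32, 7 were called higher, all but Cnp, with a median log2 fold change over the 8 of 2.63, and of 1.47 without Fl/Fl 37. Without that culture 12 of the 32 were called, 10 higher and 2 lower, against 26.5% of all genes, and the calls of Sox10, Myrf, Tmem88b and Aspa were lost.

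**Figure D1:**
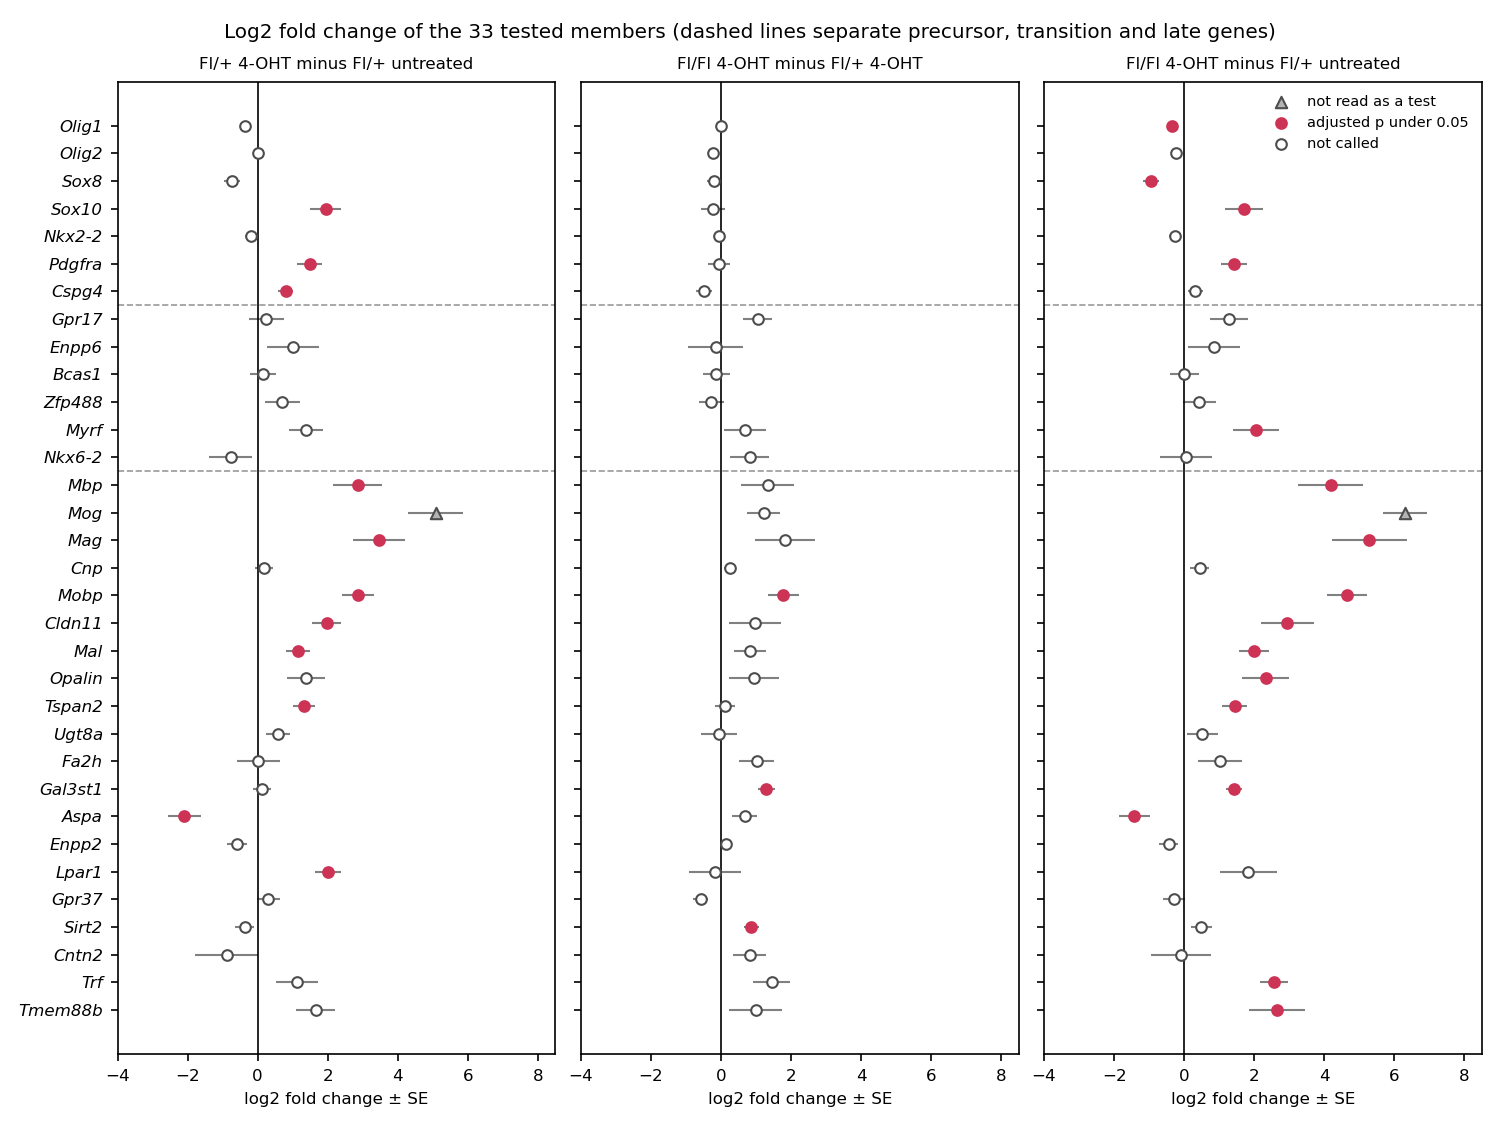
Log2 fold change ± SE (horizontal axis) of the 33 tested members (vertical axis) in the 3 comparisons, n = 5 cultures per group. Red points have an adjusted p under 0.05, open points do not, and grey triangles mark Mog where it passed the filter through the treated libraries alone. In the middle panel, for Trrap deletion, 3 points are red, whereas the left panel, for 4-OHT, has 11 and the right panel 16.

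Among precursor genes, Sox10, the factor required for the terminal differentiation of the lineage, was higher after 4-OHT. Untreated cultures of mice 19, 24, 26, 35 and 36 held 15.1, 52.98, 37.04, 11.004 and 9.24 CPM of Sox10, and 4-OHT cultures of the same mice, in the same order, held 114, 77.5, 98.8, 72.97 and 119 CPM. Fl/Fl cultures of mice 27, 28, 29, 37 and 39 held 44.8, 77.02, 69.3, 174 and 43.8 CPM. Every 4-OHT culture thus lay above every untreated one, a log2 fold change of 1.94 ± 0.45 (SE, adjusted p = 0.0163, exact permutation p = 0.00794, the smallest that 5 against 5 can give), and the relative gains were largest in mice 35, 36 and 19, which started lowest. Between Fl/Fl and Fl/+ 4-OHT cultures Sox10 overlapped at -0.22 ± 0.34 (adjusted p = 0.650), and without Fl/Fl 37 it was called lower at -0.71 (adjusted p = 0.0266). Against untreated cultures Fl/Fl cultures were at 1.72 ± 0.54 (adjusted p = 0.0325), a call lost on leaving out Fl/Fl 28 or 37, or untreated 19, 35 or 36, with 1.24 (adjusted p = 0.0843) without Fl/Fl 37.

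Pdgfra, the receptor through which platelet-derived growth factor keeps precursors dividing, was also higher after 4-OHT. It was at 69.2, 99.2, 92.8, 41.8 and 28.6 CPM in untreated and 292, 101, 147, 181 and 206 CPM in 4-OHT Fl/+ cultures, and at 119, 219.5, 127, 305 and 114 CPM in Fl/Fl cultures. Both 4-OHT groups lay wholly above the untreated one, with log2 fold changes of 1.49 ± 0.36 in Fl/+ (adjusted p = 0.0201) and 1.42 ± 0.38 in Fl/Fl cultures (adjusted p = 0.0154), and they overlapped with each other (-0.057 ± 0.32, adjusted p = 0.910). In mouse 24 the paired difference was close to 0, at 0.027 on the log2 scale. Cspg4, the NG2 proteoglycan of the precursor surface, was at 95.7, 117, 101, 59.8 and 74.8 CPM in untreated, 186, 155, 211, 112 and 114 CPM in 4-OHT and 94.2, 149, 112, 125 and 72.8 CPM in Fl/Fl cultures. It was higher after 4-OHT in 5 of 5 mice, with 0.80 ± 0.22 (adjusted p = 0.0320, and 0.00144 with the mouse as a block), although the unblocked call was lost on leaving out any of 7 libraries, 4-OHT 19, 24 or 26 or untreated 19, 26, 35 or 36, where the adjusted p reached 0.0754. The Fl/Fl cultures overlapped both Fl/+ groups.

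Olig1 and Sox8 lay lower in the treated cultures. Olig1 was at 2533, 2282, 2761, 2365 and 2269 CPM in untreated, 1847, 2004, 2427, 1725 and 1453 CPM in 4-OHT and 2076, 1857, 1812, 1698 and 1998 CPM in Fl/Fl cultures. It was lower after 4-OHT in 5 of 5 mice, without a call in the unpaired test (-0.37 ± 0.13, adjusted p = 0.0931) and with one when the mouse was a block (-0.38 ± 0.10, adjusted p = 0.0253), while leaving out 4-OHT 26 gave 0.0332. Each Fl/Fl culture lay below each untreated culture (-0.36 ± 0.10, adjusted p = 0.0163), and the log2 difference between the 4-OHT groups was 0.011 ± 0.13. Sox8, which shares targets with Sox10, was at 615, 834, 787, 405 and 426 CPM in untreated, 317, 408, 519, 293 and 297 CPM in 4-OHT and 309, 335, 431, 235 and 267 CPM in Fl/Fl cultures. Again 5 of 5 mice were lower after 4-OHT, with an unblocked adjusted p of 0.0595 and a blocked one of 0.00242 (-0.71 ± 0.11), and the unblocked test gave a call without 4-OHT 26 (adjusted p = 0.0342), untreated 35 (0.0395) or untreated 36 (0.0326). With 5 mice the exact sign-flip test cannot go below 0.0625, which both genes reached. Against untreated cultures the Fl/Fl cultures were at -0.95 ± 0.23 for Sox8 (adjusted p = 0.0104), with Fl/Fl 29 above the 2 lowest untreated cultures.

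Olig2, the factor that specifies the lineage, was at 749, 808, 854, 862 and 879 CPM in untreated, 878, 821, 1009, 767 and 711 CPM in 4-OHT and 776, 727, 763, 586 and 679 CPM in Fl/Fl cultures. All 3 groups overlapped, and the log2 fold change was 0.014 ± 0.10 with 4-OHT and -0.23 ± 0.11 with Trrap deletion (adjusted p = 0.147). Nkx2-2, a homeodomain factor of the lineage, ranged over 25.4 to 45.4, 26.1 to 39.7 and 26.4 to 37.3 CPM in the same order and was called in no comparison. After 4-OHT the precursor stage thus held 3 genes called higher, 2 called lower with the mouse as a block, and 2 without a call.

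**Figure D2:**
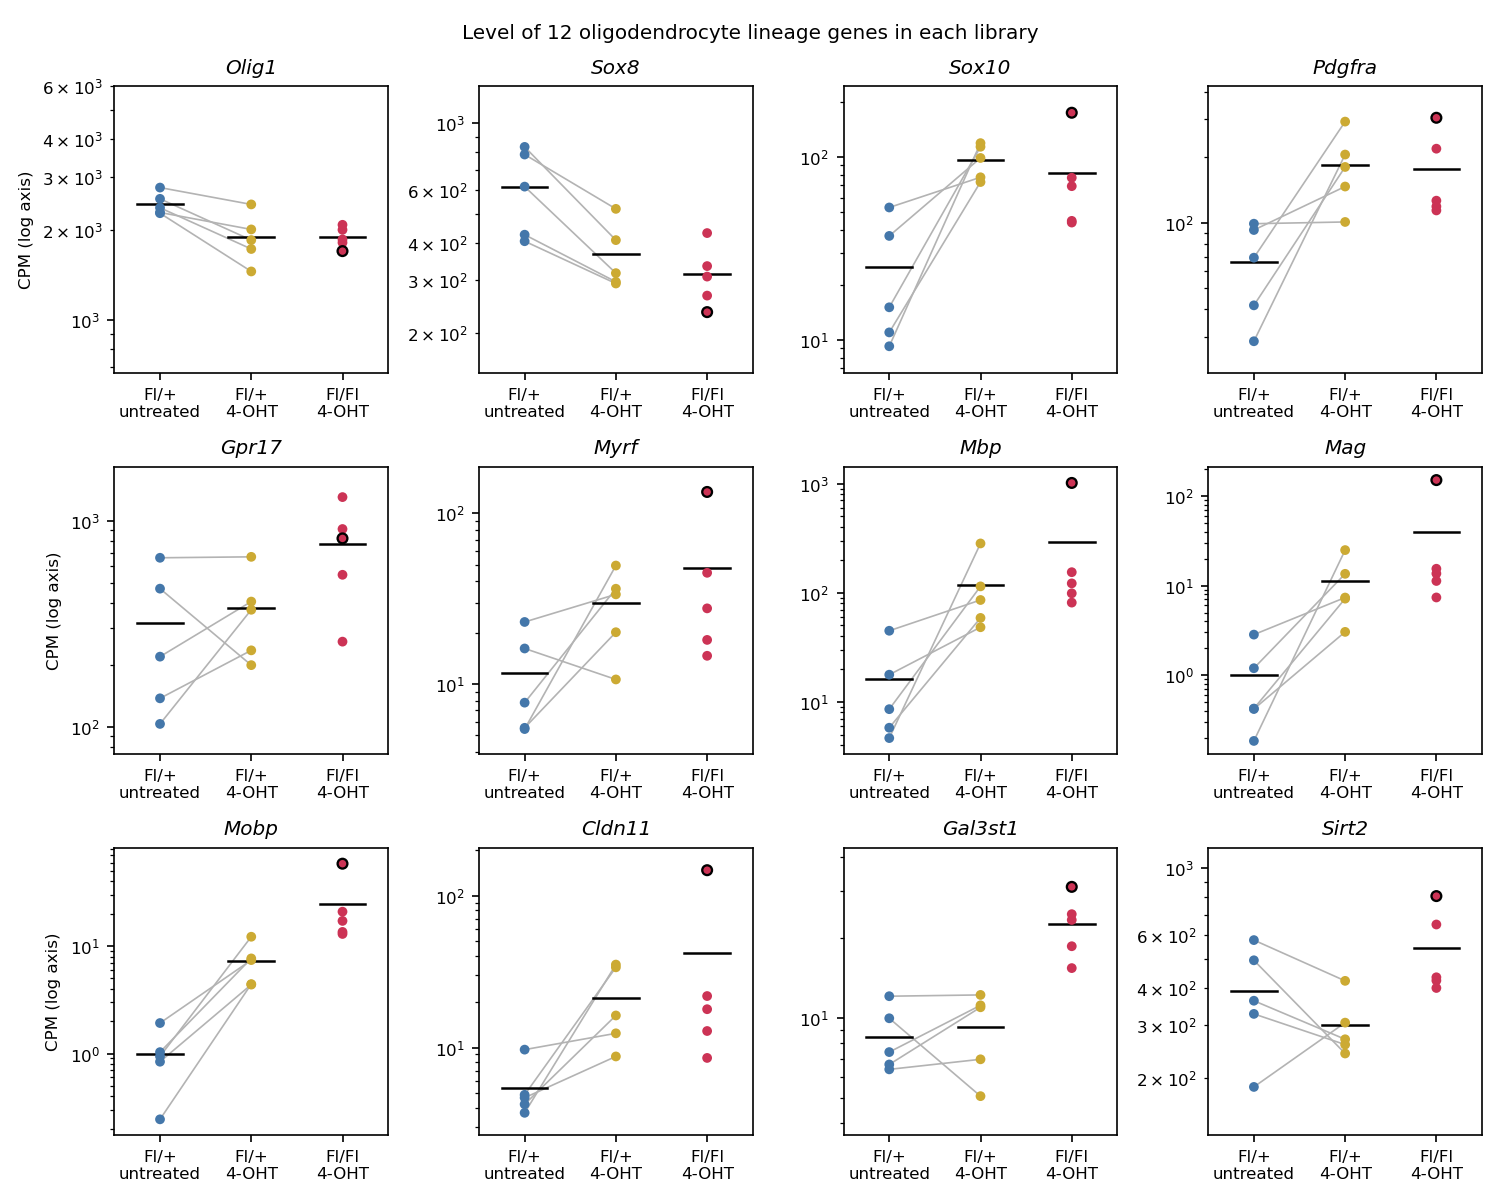
CPM on a log axis of 12 members in each library, by group. Points are cultures, black bars are group means, grey lines join the 2 cultures of one mouse, and the point ringed in black is Fl/Fl 37. For Mobp and Gal3st1 the 5 Fl/Fl points lie above all 5 Fl/+ 4-OHT points, whereas for Mag and Cldn11 the mean of the Fl/Fl group rests on the ringed point.

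None of the 6 transition genes was called for 4-OHT or for Trrap deletion. Gpr17, an orphan receptor that marks committed precursors and must be shut off before myelin is made, was at 219, 468, 661, 137 and 103 CPM in untreated, 405, 199, 668, 235 and 369.5 CPM in 4-OHT and 546, 911, 1302, 821 and 259 CPM in Fl/Fl cultures. The other 4 Fl/Fl cultures were above the mean of either Fl/+ group, while Fl/Fl 39 was among the Fl/+ values, and the difference between the 4-OHT groups, 1.05 ± 0.42, missed the threshold (adjusted p = 0.0756). It passed on leaving out Fl/Fl 39 (adjusted p = 0.0240) or Fl/+ 4-OHT 26 (0.0308). Against untreated cultures the Fl/Fl cultures were at 1.29 ± 0.54 (adjusted p = 0.0924, and 0.0327 without untreated 26). Bcas1, a marker of newly myelinating cells, was at 133, 247, 421, 151 and 148 CPM in untreated, 276, 111, 312, 181 and 335 CPM in 4-OHT and 135, 161, 260.4, 427 and 113 CPM in Fl/Fl cultures, 3 ranges that overlapped, with log2 fold changes of 0.14 ± 0.37 for 4-OHT and -0.13 ± 0.38 for Trrap deletion.

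Myrf, the membrane-bound factor that drives the myelin genes, was at 7.78, 16.1, 23.1, 5.54 and 5.45 CPM in untreated, 36.1, 10.6, 33.5, 20.1 and 49.4 CPM in 4-OHT and 14.6, 27.7, 44.8, 133 and 18.1 CPM in Fl/Fl cultures. Its level was higher after 4-OHT in 4 of 5 mice, all but mouse 24, without a call (1.37 ± 0.48, adjusted p = 0.0836, exact permutation p = 0.0476), and leaving out 4-OHT 24 or untreated 26 gave one (0.0475 and 0.0390). In Fl/Fl against untreated cultures Myrf was called higher at 2.05 ± 0.65 (adjusted p = 0.0325), but at 1.19 (adjusted p = 0.0902) without Fl/Fl 37, and the call was also lost without Fl/Fl 29 or untreated 19, 35 or 36. Zfp488, a cofactor of Olig2, ranged over 3.89 to 25.7, 10.02 to 36.9 and 8.06 to 24.3 CPM. Enpp6, a choline phosphodiesterase of newly formed oligodendrocytes, ranged over 3.24 to 27.7, 2.82 to 53.04 and 4.66 to 48.9 CPM, and the homeodomain factor Nkx6-2 over 0.920 to 9.17, 1.05 to 3.10 and 1.15 to 10.3 CPM. None of these 3 was called in any comparison.

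Among sheath genes Mbp, the basic protein that compacts myelin, was at 8.54, 17.7, 44.7, 5.77 and 4.64 CPM in untreated cultures and 114, 48.1, 85.6, 58.6 and 282 CPM in 4-OHT cultures of the same mice. The 2 groups did not overlap, with 16.3 ± 16.7 and 118 ± 95.5 CPM as means, and the log2 fold change was 2.86 ± 0.69, a factor of 7.24 (adjusted p = 0.0205). That value was 2.25 without 4-OHT 36 and 3.68 without untreated 26, and the call was lost without untreated 19 (adjusted p = 0.0526). Fl/Fl cultures held 80.99, 98.5, 154, 1013 and 122 CPM of Mbp. Here 4 of the 5 cultures lay within the Fl/+ 4-OHT range and Fl/Fl 37 was far above it, so that the log2 difference of 1.33 ± 0.75 (adjusted p = 0.200) became -0.042 without that culture. Against untreated cultures Mbp was higher in Fl/Fl cultures by 4.18 ± 0.92 (adjusted p = 0.00610), and by 2.82 (adjusted p = 0.00704) without Fl/Fl 37 and 5.01 without untreated 26.

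Mag, an adhesion molecule of the sheath layer that faces the axon, repeated this pattern at lower levels. It was at 1.19, 0.419, 2.83, 0.423 and 0.184 CPM in untreated and 13.5, 3.04, 7.35, 7.14 and 24.9 CPM in 4-OHT cultures, with no overlap and a log2 fold change of 3.46 ± 0.74 (adjusted p = 0.0118), or 4.32 without untreated 26. Fl/Fl cultures were at 7.36, 11.3, 15.4, 151 and 13.6 CPM. Leaving out Fl/Fl 37 took the difference between the 4-OHT groups from 1.83 ± 0.86 (adjusted p = 0.127) to 0.10, and that between Fl/Fl and untreated cultures from 5.29 ± 1.07 (adjusted p = 0.00387) to 3.56 (adjusted p = 0.00302), while without untreated 26 the latter was 6.15.

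Mobp, a small basic protein of compact myelin, separated all 3 groups. It was at 0.941, 0.244, 0.839, 1.92 and 1.03 CPM in untreated, 12.2, 4.43, 4.38, 7.42 and 7.69 CPM in 4-OHT and 17.2, 12.98, 13.6, 58.6 and 20.9 CPM in Fl/Fl cultures. No culture of one group reached the range of another. The log2 fold change was 2.86 ± 0.46 with 4-OHT (adjusted p = 0.00288), 1.78 ± 0.45 with Trrap deletion (adjusted p = 0.0118) and 4.64 ± 0.58 for Fl/Fl against untreated cultures (adjusted p = 0.000294), with an exact permutation p of 0.00794 in each. Without Fl/Fl 37 the last 2 values were 1.16 (adjusted p = 0.0135) and 4.04 (adjusted p = 0.000226). In all 5 mice Mobp was higher after 4-OHT, by 1.71 to 3.14 on the log2(CPM + 0.5) scale.

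Cldn11, the claudin of the tight junctions between myelin layers, was at 4.88, 4.67, 9.69, 4.23 and 3.72 CPM in untreated, 33.7, 8.74, 12.4, 16.3 and 35.2 CPM in 4-OHT and 8.54, 17.9, 21.8, 147 and 12.8 CPM in Fl/Fl cultures. It was higher after 4-OHT in 5 of 5 mice (1.97 ± 0.42, adjusted p = 0.0112), with 4-OHT 24 below the highest untreated culture. The 4-OHT groups overlapped (0.98 ± 0.74, and -0.47 without Fl/Fl 37), and Fl/Fl against untreated cultures gave 2.94 ± 0.76 (adjusted p = 0.0133), or 1.502 (adjusted p = 0.00856) without Fl/Fl 37. Tspan2, a tetraspanin of early myelinating cells, was at 4.56, 6.63, 4.51, 2.35 and 2.54 CPM in untreated, 13.5, 8.58, 10.5, 6.69 and 12.3 CPM in 4-OHT and 7.98, 9.42, 11.7, 19.6 and 6.81 CPM in Fl/Fl cultures. Both 4-OHT groups lay above the untreated one (1.32 ± 0.30, adjusted p = 0.0155, and 1.44 ± 0.35, adjusted p = 0.0104) and overlapped with each other (0.12 ± 0.29).

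Mal, a proteolipid that takes part in the sorting of myelin membrane, was at 1.48, 2.27, 2.73, 1.65 and 2.84 CPM in untreated, 8.28, 2.91, 2.65, 4.06 and 6.56 CPM in 4-OHT and 3.85, 6.19, 6.13, 20.1 and 7.29 CPM in Fl/Fl cultures. Its rise with 4-OHT sat at the edge of the threshold (1.16 ± 0.34, adjusted p = 0.0460, 0.04998 with the mouse as a block) and was lost on leaving out any of 7 libraries, 4-OHT 19, 35 or 36 or untreated 19, 24, 26 or 35, where the adjusted p reached 0.115. All 5 Fl/Fl cultures lay above all untreated ones (1.996 ± 0.42, adjusted p = 0.00500). Opalin, a membrane glycoprotein of mature oligodendrocytes, was at 0.398, 0.628, 0.175, 0.346 and 0.405 CPM in untreated, 1.12, 0.285, 0.395, 1.04 and 2.26 CPM in 4-OHT and 0.621, 0.918, 1.02, 6.26 and 1.04 CPM in Fl/Fl cultures. It was called only for Fl/Fl against untreated cultures (2.33 ± 0.67, adjusted p = 0.0222), at 1.20 (adjusted p = 0.0259) without Fl/Fl 37, and not without untreated 26 (adjusted p = 0.0510).

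Cnp, by contrast, was at 398, 551, 524, 334 and 178 CPM in untreated, 414, 399, 596, 385 and 439 CPM in 4-OHT and 457, 462, 516, 778 and 459 CPM in Fl/Fl cultures. The groups overlapped, and the log2 fold change was 0.17 ± 0.26 with 4-OHT (adjusted p = 0.701) and 0.27 ± 0.17 with Trrap deletion (adjusted p = 0.247). Mog, a glycoprotein of the outer sheath surface, was below 1 CPM on average over the 15 libraries. Its counts summed to 3 over the untreated, 127 over the 4-OHT and 291 over the Fl/Fl libraries, a ratio of 40.7 for 4-OHT (95% exact counting interval 13.6 to 199.8) and 91.2 for Fl/Fl against untreated cultures (30.9 to 445). Of the 3 untreated counts 2 were in culture 26 and 1 in culture 36. These 2 differences are given without a test, since Mog passed the filter on low counts through the treated libraries alone. The difference between the 4-OHT groups, 1.22 ± 0.47, was not called (adjusted p = 0.0673), except without Fl/+ 4-OHT 19 (adjusted p = 0.0156). These intervals cover counting error only. Ermn, a cytoskeletal protein of late oligodendrocytes, had 8, 34 and 95 counts over the 3 groups in that order, of which 57 were in 1 Fl/Fl library, and was not tested.

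The myelin lipid genes did not share one direction. Gal3st1, the sulfotransferase that turns galactosylceramide into sulfatide, was at 7.42, 9.94, 12.03, 6.39 and 6.66 CPM in untreated, 11.1, 5.06, 12.2, 6.97 and 10.9 CPM in 4-OHT and 18.5, 23.3, 24.5, 31.01 and 15.3 CPM in Fl/Fl cultures. All 5 Fl/Fl cultures lay above all 10 Fl/+ cultures, with 1.30 ± 0.26 against Fl/+ 4-OHT (a factor of 2.46, adjusted p = 0.00350, and 0.00767 without Fl/Fl 37) and 1.42 ± 0.23 against untreated cultures (adjusted p = 0.00129). With 4-OHT in Fl/+ cultures it was at 0.12 ± 0.27 (adjusted p = 0.796). Aspa, the enzyme that frees acetate from N-acetylaspartate for lipid synthesis, was at 5.72, 6.66, 1.89, 7.35 and 13.4 CPM in untreated, 1.08, 2.82, 1.03, 1.28 and 1.94 CPM in 4-OHT and 2.17, 2.86, 1.93, 1.55 and 4.41 CPM in Fl/Fl cultures. It was lower after 4-OHT in 5 of 5 mice (-2.10 ± 0.46, adjusted p = 0.0138), although untreated 26 lay among the treated values. Fl/Fl against untreated cultures gave -1.42 ± 0.45 (adjusted p = 0.0315), a call lost on leaving out Fl/Fl 27, 28, 29 or 37 or untreated 35 or 36, where the adjusted p reached 0.0718. Ugt8a, which makes galactosylceramide, ranged over 7.74 to 16.2, 8.26 to 33.4 and 7.83 to 46.8 CPM, and Fa2h, which hydroxylates its fatty acid, over 1.77 to 15.9, 2.41 to 12.4 and 5.83 to 28.4 CPM, and neither was called.

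Among the other late genes Sirt2, a tubulin deacetylase abundant in oligodendrocytes, was at 362, 494, 577, 328 and 187 CPM in untreated, 269.8, 242, 422, 259 and 307 CPM in 4-OHT and 423, 434, 649.7, 808 and 399.7 CPM in Fl/Fl cultures. Fl/Fl cultures were higher than Fl/+ 4-OHT cultures by 0.87 ± 0.22 (adjusted p = 0.0120, exact permutation p = 0.0159, and 0.67, adjusted p = 0.0235, without Fl/Fl 37), with only Fl/+ 4-OHT 26 above the lowest Fl/Fl culture. They overlapped the untreated cultures (0.49 ± 0.29, adjusted p = 0.227), and 4 of 5 mice had less Sirt2 after 4-OHT (-0.38 ± 0.26, adjusted p = 0.376). Trf, transferrin, was at 4.67, 1.4998, 3.08, 1.27 and 1.33 CPM in untreated, 11.2, 3.36, 7.90, 2.32 and 0.987 CPM in 4-OHT and 21.8, 11.7, 9.24, 15.9 and 10.8 CPM in Fl/Fl cultures. It was above the untreated cultures in every Fl/Fl culture (2.56 ± 0.41, adjusted p = 0.00107), missed the threshold for Trrap deletion (1.44 ± 0.53, adjusted p = 0.0590, but 0.0212 without Fl/+ 4-OHT 19), and was called for 4-OHT only with the mouse as a block (0.92 ± 0.26, adjusted p = 0.0337, and 0.250 without the block).

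Lpar1, a receptor for lysophosphatidic acid, was at 1.99, 2.06, 2.17, 0.654 and 1.14 CPM in untreated, 5.81, 6.05, 3.36, 5.93 and 10.9 CPM in 4-OHT and 1.21, 1.87, 2.36, 21.6 and 1.56 CPM in Fl/Fl cultures. It rose with 4-OHT without overlap (1.999 ± 0.37, adjusted p = 0.00602). The 4 Fl/Fl cultures other than Fl/Fl 37 lay below every Fl/+ 4-OHT culture, and the difference with Trrap deletion went from -0.17 ± 0.75 (adjusted p = 0.887) with all cultures to -1.87 (adjusted p = 0.00254) without Fl/Fl 37. Tmem88b, a membrane protein enriched in oligodendrocytes, was at 1.34, 1.95, 3.95, 0.923 and 0.736 CPM in untreated, 7.17, 1.68, 5.96, 2.70 and 10.5 CPM in 4-OHT and 2.39, 3.98, 9.08, 36.8 and 3.26 CPM in Fl/Fl cultures. Its call in Fl/Fl against untreated cultures (2.64 ± 0.80, adjusted p = 0.0269) was lost without Fl/Fl 37 (1.40, adjusted p = 0.0736) and without untreated 19, 35 or 36, while its rise with 4-OHT (1.65 ± 0.56, adjusted p = 0.0717) was called without 4-OHT 24 or untreated 26 (adjusted p = 0.0430 and 0.0308).

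The remaining 3 late genes were called in no comparison with all libraries. Enpp2, autotaxin, the enzyme that makes lysophosphatidic acid, ranged over 131 to 442, 141 to 232 and 179 to 237 CPM, and its lower level after 4-OHT (-0.60 ± 0.28, adjusted p = 0.187) was called only without untreated 36 (adjusted p = 0.0374), as was that of Fl/Fl against untreated cultures (adjusted p = 0.0413). Gpr37, a receptor linked to the timing of differentiation, ranged over 6.14 to 16.8, 8.99 to 17.5 and 6.05 to 11.8 CPM. Its difference with Trrap deletion, -0.58 ± 0.21 (adjusted p = 0.0574), was -0.75 (adjusted p = 0.0187) without Fl/Fl 37. Cntn2, an adhesion molecule of the juxtaparanode, ranged over 0.221 to 9.62, 0.443 to 2.60 and 1.15 to 4.72 CPM.

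**Figure D3:**
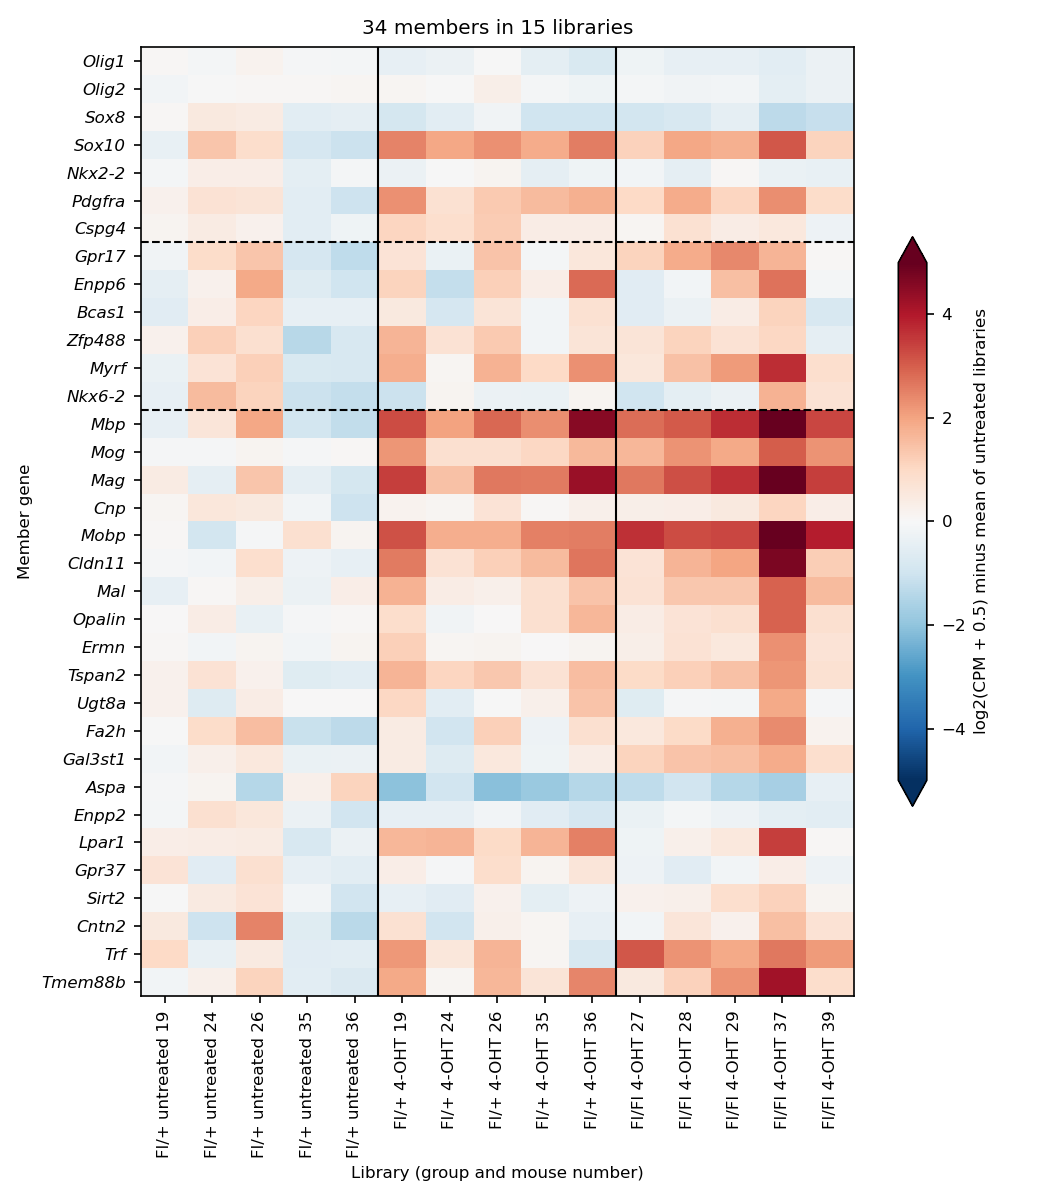
Log2(CPM + 0.5) of each of the 34 members (rows) in each of the 15 libraries (columns), minus the mean of the 5 untreated libraries, with colours saturated beyond 5 in either direction. Dashed lines separate precursor, transition and late genes. The Fl/Fl 37 column reaches its highest values for Mag, Mbp, Mobp and Cldn11, and the Aspa row is below the untreated mean in all 10 treated libraries.

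Read by library, the 3 stages differed in how far the treated cultures lay from the untreated mean. For each culture the median was taken over the members of a stage with a mean of at least 1 CPM, as a log2 difference from the untreated mean, and no test was made. The 7 precursor genes had medians of -0.51 to 0.42 in untreated, -0.22 to 0.28 in 4-OHT and -0.32 to 0.061 in Fl/Fl cultures. The 6 transition genes had medians of -0.92 to 1.16, -0.11 to 1.26 and -0.02 to 1.72. For the 19 late genes the medians were -0.52 to 0.52 in untreated, 0.094 to 1.41 in 4-OHT and 0.50 to 2.36 in Fl/Fl cultures, of which the highest was that of Fl/Fl 37. The untreated cultures of mice 35 and 36 were the lowest of their group at the late stage and those of mice 24 and 26 the highest. All 5 Fl/Fl cultures and all 5 Fl/+ 4-OHT cultures had a late median above 0, whereas their precursor medians lay on both sides of 0.

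**Figure D4:**
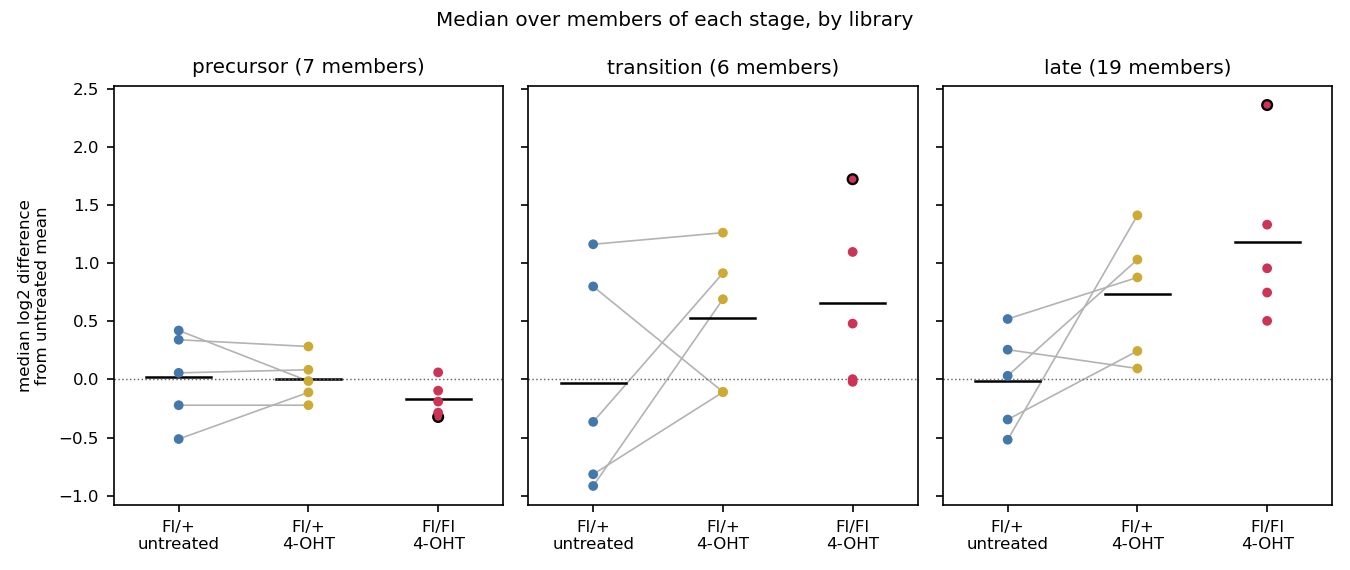
Median log2 difference from the untreated mean (vertical axis) over the members of each stage, by library and group. Points are cultures, bars are group means, lines join the 2 Fl/+ cultures of one mouse, and the ringed point is Fl/Fl 37. Late medians of the Fl/Fl cultures run from 0.50 to 2.36, while the precursor medians of the same cultures run from -0.32 to 0.061.

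The promoters of the 3 genes called with Trrap deletion, of Mag, which rose with 4-OHT, and of Cnp, which was called in no comparison, are shown so that their motifs can be compared. Motifs were searched in the 250 bases before a transcript start in RefSeq (GRCm38.p6), which gave an entry for 25 of the 34 members, not for Olig1, Sox10, Gpr17, Bcas1, Myrf, Mbp, Fa2h, Enpp2 and Trf. The stretches printed are those of the 250 bases that lie upstream of the gene in the GENCODE annotation, so that 35 bases at the 3′ end are left out for Mobp, 35 for Cnp, 17 for Sirt2, 10 for Mag and none for Gal3st1. They are chr9:120149492-120149706 (+ strand) for Mobp, chr11:3983386-3983635 (+ strand) for the first of 3 starts of Gal3st1, chr7:28766502-28766734 (+ strand) for Sirt2, chr7:30914874-30915113 (- strand) for the first of 3 starts of Mag, and chr11:100574689-100574903 (+ strand) for Cnp, each printed 5′ to 3′ on the strand of the gene. Capitals mark matches on either strand to the GC box GGGCGG, to the Sox-type motif ACAAAG and to CTGGCAC, a half-site of the kind bound by Myrf, and no matches overlapped.
Mobp: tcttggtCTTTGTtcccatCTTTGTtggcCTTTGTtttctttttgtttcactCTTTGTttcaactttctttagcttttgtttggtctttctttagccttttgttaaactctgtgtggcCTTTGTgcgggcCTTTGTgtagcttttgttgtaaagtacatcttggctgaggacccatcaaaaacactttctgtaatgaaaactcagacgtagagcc
Gal3st1: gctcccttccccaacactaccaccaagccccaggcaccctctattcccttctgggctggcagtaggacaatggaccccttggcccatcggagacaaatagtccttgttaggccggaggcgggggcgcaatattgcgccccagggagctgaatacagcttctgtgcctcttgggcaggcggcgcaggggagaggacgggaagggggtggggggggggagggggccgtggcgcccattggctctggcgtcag
Sirt2: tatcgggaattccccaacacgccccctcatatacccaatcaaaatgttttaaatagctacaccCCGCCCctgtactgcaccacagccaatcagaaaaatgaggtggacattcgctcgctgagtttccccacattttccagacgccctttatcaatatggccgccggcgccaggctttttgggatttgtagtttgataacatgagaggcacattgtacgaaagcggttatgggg
Mag: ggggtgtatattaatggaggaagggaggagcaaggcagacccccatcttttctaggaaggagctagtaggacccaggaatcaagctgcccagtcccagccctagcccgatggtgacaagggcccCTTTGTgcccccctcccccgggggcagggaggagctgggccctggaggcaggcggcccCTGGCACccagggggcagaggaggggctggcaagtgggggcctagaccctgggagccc
Cnp: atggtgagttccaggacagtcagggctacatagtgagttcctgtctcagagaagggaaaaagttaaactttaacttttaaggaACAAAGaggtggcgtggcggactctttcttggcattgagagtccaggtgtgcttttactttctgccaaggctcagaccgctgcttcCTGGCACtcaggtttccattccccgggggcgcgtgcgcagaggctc

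The Mobp window held 6 matches to the Sox-type motif, all of them on the strand opposite to the gene, and of the 32851 promoters in the table it was the 1 with so many. Counted by gene, with 1 window or more each, at least 1 match was found in 18.6% of the 27025 genes in the table and in 6 of the 25 members with an entry (Cnp, Lpar1, Mag, Mobp, Opalin and Tspan2). The GC box was found in 35.4% of genes and in 10 of the 25 members, among them Sirt2 with 1 match and Cnp with 2, both in the part not printed, and not in the windows of Mobp, Gal3st1 or Mag. The Myrf half-site was found in 4.83% of genes and in 3 members, Cnp, Lpar1 and Mag. The shown window of Gal3st1 held none of the 3 motifs. Cnp, which was not called, held all 3 motifs. A match describes letters and not a bound site.

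Further genes of the lineage were read from 4 lists. Among 13 other precursor genes, 6 were called with Trrap deletion, 5 of them lower, against 31.7% of all genes called and 15.0% called lower, with a median log2 fold change of -0.34. Rlbp1, a retinoid-binding protein found in precursors, fell from 37.7 ± 28.1 to 10.2 ± 3.12 CPM (-1.87 ± 0.47, adjusted p = 0.0120) and Vcan, the proteoglycan versican, from 168 ± 35.9 to 66.4 ± 14.2 CPM (-1.32 ± 0.17, adjusted p = 0.000312), while Neu4, a sialidase, rose (1.44 ± 0.47, adjusted p = 0.0380), a call lost without Fl/Fl 37, where 5 of the 13 were called, all lower. Of 24 further oligodendrocyte and myelin genes 21 were tested with Trrap deletion, and 6 were called higher and 1 (Anln) lower, 7 of 21 beside 31.7% of all genes, at a median log2 fold change of 0.52. Between the Fl/+ groups only 19 passed the filter on low counts. The 21 and their median thus include genes tested only with the Fl/Fl libraries included, for which a higher call would not be independent of the filter. Without Fl/Fl 37 the same 6 were called higher, the 1 called lower was Cd9 in place of Anln, and the median was 0.11. Pllp, the myelin protein plasmolipin, rose from 19.9 ± 3.58 to 58.7 ± 11.9 CPM (1.57 ± 0.16, adjusted p = 0.000123) and Ptgds, a prostaglandin synthase, from 22.9 ± 3.95 to 55.99 ± 4.0050 CPM (1.30 ± 0.12, adjusted p = 6.09e-05). With 4-OHT 19 of these were tested, and 2 were called higher and 4 lower, or 7 and 4 with the mouse as a block, against 13.8% and, with the block, 25.7% of all genes. Ndrg1, a stress-responsive gene also found in myelinating cells, rose (2.92 ± 0.78, adjusted p = 0.0312), and Ptgds and the connexin Gjc3 fell (-1.22 ± 0.16, adjusted p = 0.00106, and -1.79 ± 0.37, adjusted p = 0.00985).

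Of 9 genes that hold back oligodendrocyte differentiation 2 were called with Trrap deletion, both lower, against 31.7% of all genes, and 3 with 4-OHT, 1 higher and 2 lower, against 13.8%. With the mouse as a block 5 were called for 4-OHT, 2 higher and 3 lower, with Bmp4 and Lingo1 added, against 25.7%. The median log2 fold change of the 9 was -0.027 with Trrap deletion and -0.16 with 4-OHT. Hes5, an effector of Notch signalling, was lower in both comparisons, from 73.5 ± 31.3 CPM in untreated to 20.1 ± 6.82 CPM in 4-OHT cultures (-1.87 ± 0.34, adjusted p = 0.00517) and 9.89 ± 3.21 CPM in Fl/Fl cultures (-1.005 ± 0.28, adjusted p = 0.0176). The receptor Notch1 was higher with 4-OHT (0.39 ± 0.082, adjusted p = 0.0104) and lower with Trrap deletion (-0.60 ± 0.094, adjusted p = 0.00100), and the inhibitor Id4 was lower with 4-OHT (-1.54 ± 0.25, adjusted p = 0.00318). In the list of 18 genes that promote differentiation, 11 were called with Trrap deletion, 10 lower and 1 higher, against 15.0% and 16.8% of all genes. With 4-OHT 5 were called, 3 higher and 2 lower, against 13.8% of all genes, or 3 and 3 with the mouse as a block, which added Cdkn1b, against 25.7%. The neuregulin receptor Erbb3 was the riser in the first case, from 1.37 ± 0.555 to 6.41 ± 4.58 CPM (2.22 ± 0.45, adjusted p = 0.00382), and rose with 4-OHT as well (2.56 ± 0.47, adjusted p = 0.00532). By that fold, its untreated level was near the limit of the filter on low counts. Erbb3 may have passed through the treated libraries alone, so its rise with 4-OHT, 1 of the 3 higher there, is not read as a test. The chromatin remodeller Chd7 fell with Trrap deletion (-0.66 ± 0.088, adjusted p = 0.000420), as did the cell cycle inhibitor Cdkn1c (-0.99 ± 0.31, adjusted p = 0.0312), a call lost without Fl/Fl 37. The thyroid hormone receptors Thra and Thrb fell with 4-OHT (-0.67 ± 0.17, adjusted p = 0.0267, and -1.82 ± 0.24, adjusted p = 0.00115). Without Fl/Fl 37 the 18 genes gave 9 lower and 1 higher with Trrap deletion, where 29.2% of all genes were called.

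Markers of other cell types were read beside these results. Summed over 8 astrocyte markers the libraries held 6316 to 8419 CPM in untreated, 5965 to 7552 CPM in 4-OHT and 5589 to 9529 CPM in Fl/Fl cultures, and 1 marker rose and 4 fell with 4-OHT, against 7.34% and 6.45% of all genes. With the mouse as a block 2 rose, with Aldh1l1 added, and 4 fell, against 13.8% and 11.9%. Gfap, which rose in both fits, is the filament protein of astrocytes and of adult stem cells (3.25 ± 0.85, adjusted p = 0.0283), and was at 1279 CPM in Fl/+ 4-OHT 36 and 2264 CPM in Fl/Fl 37, the highest culture of each group for Mbp. The part of the Gfap-expressing cells in the results was not tested. With Trrap deletion 1 astrocyte marker of the 8 was called, Aldoc, higher, against 16.8% of all genes. Without Fl/Fl 37, Aldh1l1 and Aqp4 were also called, both lower, where 29.2% of all genes were called. For Fl/Fl against untreated cultures 1 was higher and 4 were lower, against 15.7% and 15.1%, or 1 and 2 without Fl/Fl 37, where 26.5% were called. The 9 neuronal markers summed to 865 to 1137, 826 to 1009 and 564 to 815 CPM, and with Trrap deletion 1 of the 8 tested rose (Slc17a7) and 2 fell, Tubb3 and Dcx, a protein of young neurons (-2.51 ± 0.41, adjusted p = 0.00123), against 16.8% and 15.0% of all genes. For Fl/Fl against untreated cultures 1 of the 8 was higher and 6 were lower, against 15.7% and 15.1% of all genes, or 1 and 4 without Fl/Fl 37, where 26.5% of all genes were called in either direction. With 4-OHT 1 of the 7 tested was lower (Gad1), against 6.45% of all genes, or 3 with the mouse as a block, against 11.9%, and none was higher. The filter on low counts thus passed 8 neuronal markers with the Fl/Fl libraries included but 7 between the Fl/+ groups. Slc17a7 was the only marker with a log2 fold change above 0 with Trrap deletion. It may have passed through the Fl/Fl libraries, so its rise in either Fl/Fl comparison is not read as a test. The 5 ependymal markers summed to 29.995 to 68.4, 40.8 to 93.5 and 78.8 to 108 CPM. Of the 4 tested, Rsph1 was called higher with Trrap deletion, against 16.8% of all genes, and Rsph1, Ccdc153 and Foxj1 in Fl/Fl against untreated cultures, against 15.7%, in each case also without Fl/Fl 37. With 4-OHT 1 of the 3 tested was called, Dynlrb2, which was lower, against 6.45%. The filter on low counts thus passed 4 ependymal markers with the Fl/Fl libraries included but 3 between the Fl/+ groups. A marker among Rsph1, Ccdc153 and Foxj1 was therefore tested only with the Fl/Fl libraries included. Its call is not independent of the filter and is not read as a test. The part of such cells in the results was not tested. Microglia were at the limit of detection, with 5 of 7 markers at 3 counts or fewer in every library and a sum of at most 2.01 CPM. The 5 endothelial markers summed to at most 8.53 CPM, mostly Kdr, and the 8 fibroblast and mural markers to at most 19.9 CPM. Of 6 markers of Schwann cells, the myelin-forming cells of the peripheral nerve, no library held more than 3 counts of Pmp2, whereas Egr2 and Prx were present and Erbb3 rose as given above. The 6 summed to 22.6 to 35.2 CPM in untreated, 27.7 to 43.1 CPM in 4-OHT and 38.3 to 45.7 CPM in Fl/Fl cultures. With Trrap deletion Erbb3 was the 1 called of the 4 tested, higher, against 16.8% of all genes. Whether Schwann-like cells had a part in the results was not tested.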

How the data were processed

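Ribonucleic acid from 15 aNSC cultures was sequenced as stranded mRNA libraries, 5 per group. According to the submitters' processing notes and the study's methods, the authors aligned reads to GRCm38 with STAR 2.5.4b and counted them per gene with featureCounts 1.5.0, and they deposited 1 table of raw counts for 53801 genes. No molecular identifiers are described, so that PCR copies enter the counts, and intervals from counts cover counting error only. Libraries held 25720034 to 32187097 counts, and 3 counts in a library correspond to 0.0932 to 0.117 CPM. Symbols, positions and exon lengths came from GENCODE for GRCm38, with 53706 gene IDs matched and 95 not. Replicate libraries differed by more than sampling noise, with a chi-square per gene of at least 19.97.

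Each comparison was made on its own 10 libraries with edgeR 4.0.16 (R 4.3.3), using filterByExpr with a minimum count of 10, TMM scaling and the quasi-likelihood F test, with Benjamini-Hochberg adjustment over all genes tested and a threshold of 0.05. Exact 2-sided permutation tests used log2(CPM + 0.5) and all 252 arrangements, whose smallest p is 0.00794, and the sign-flip test over 5 mice used 32, whose smallest p is 0.0625. The pairing comes from the mouse numbers in the titles, which the Fl/+ groups share. Deviations from the group means correlated at r = 0.153 to 0.634 over genes for cultures of one mouse and -0.559 to 0.350 for cultures of different mice, so the fit with the mouse as a block is given beside the unblocked one where it changes the call of a member. Alternatives were DESeq2 1.42.0, other scalings, no filter on low counts, a spread shared over 15 libraries, labelled sex or mouse number series as covariates, and each library left out in turn.

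Library values are given for the 19 members that were called in at least 1 comparison at a mean of at least 1 CPM, and for the 2 most abundant members per kb of each stage, 23 in all. Mog and Ermn are described besides, after their values were seen. Of the further lists, up to 3 called genes per list and comparison with the largest change and a mean of at least 1 CPM are named, and Anln, Cd9, Aldh1l1, Bmp4, Lingo1, Cdkn1b and marker genes of other cell types were singled out after their values were seen. Members and lists were chosen with earlier results of these data known. Values of some genes of the further lists are not reported here. Nothing says which cultures shared a preparation day, so p-values measure the spread between cultures of different mice only.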

Additional observations from a re-analysis of the deposited data

Results flagged for a closer look

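In each of 69 groups of 5 cultures, 3 for each of the 23 members with library values, the highest and the lowest culture were compared with the nearest other. The gap exceeded Dixon's 95% critical value of 0.71 times the range in 14 groups. That value flags about 1 in 20 of independent normal samples, whereas these were unlogged CPM of genes read in the same libraries. The rate by chance for such values was not measured. Of these, 11 were Fl/Fl 37. Among its precursor and transition genes, Fl/Fl 37 held 174 CPM of Sox10 and 133 CPM of Myrf. Among the sheath genes it held 1013 CPM of Mbp, 151 CPM of Mag, 778 CPM of Cnp, 58.6 CPM of Mobp, 147 CPM of Cldn11, 20.1 CPM of Mal and 6.26 CPM of Opalin. Among the other late genes it held 21.6 CPM of Lpar1 and 36.8 CPM of Tmem88b. In the Fl/+ cultures the far values were 282 CPM of Mbp in 4-OHT 36, 596 CPM of Cnp in 4-OHT 26 and 9.69 CPM of Cldn11 in untreated 26. Each was the highest culture of its group. The cause of these values was not tested.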

How the results depend on the processing

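Mobp, Gal3st1 and Sirt2 remained called with Trrap deletion under each of the 17 alternatives run. Counts of members here include Mog, which had to differ from untreated cultures. The number of members called there, 3 with none lower, was 5 with 1 lower under DESeq2, which added Gpr37 and Mog and gave no adjusted p for Lpar1, Mag and Mbp, and 5 with 1 lower with the mouse number series as a covariate, which added Olig2 and Trf. Leaving out 1 library at a time gave 3 to 6 calls in all, 3 to 5 higher and 0 to 3 lower. Over all genes the same fits gave 4773 calls with all libraries, 5624 under DESeq2, 5459 with the number series and 3772 to 4734 on leaving out 1 library. For 4-OHT the mouse as a block gave 15 calls against 12, or 14 against 11 without Mog, with 3 lower against 1, and it ended none of the 12. Over all genes that block gave 3809 calls against 2044, the number series 3170, and leaving out 1 library 1271 (4-OHT 19) to 2522. The calls lower were 2 under DESeq2, 3 with a spread over 15 libraries, 3 with labelled sex and 3 with number series as a covariate, and 1 to 3 on leaving out a library. DESeq2 also added Myrf, Sox8 and Tmem88b, the number series added Zfp488, and that series, the shared spread and labelled sex each added Olig1 and Sox8, while the spread over 15 libraries ended the calls of Cldn11, Lpar1 and Mal, and labelled sex or no filter ended that of Mal. Labelled sex follows the labels, against which Fl/Fl 39 goes. For Fl/Fl against untreated cultures, scaling by library size ended the call of Olig1, the number series ended those of Myrf and Tmem88b and added Gpr17, and no filter added Ermn. DESeq2 gave 15 calls there, 14 of them among the 17, Mog included, with Ermn added and no adjusted p for Mag, Mbp and Opalin, which were among the 17, or for Lpar1 and Ugt8a. Near 0, Olig1 turned with Trrap deletion to -0.0029 under DESeq2, -9.6e-05 with DESeq2 size factors and -0.0024 with the shared spread, and Bcas1 turned for Fl/Fl against untreated cultures to -0.00028 with DESeq2 size factors and -0.0057 with the shared spread. Among members without a call, leaving out 1 library changed the sign with Trrap deletion for Olig1 (-0.087 to 0.11), Nkx2-2 (-0.16 to 0.017), Pdgfra (-0.35 to 0.16), Enpp6 (-1.02 to 0.64), Bcas1 (-0.53 to 0.025), Myrf (-0.18 to 0.93), Mbp (-0.042 to 1.94), Cldn11 (-0.47 to 1.24), Opalin (-0.17 to 1.46), Tspan2 (-0.20 to 0.24), Ugt8a (-0.81 to 0.24), Lpar1 (-1.87 to 0.10) and Tmem88b (-0.25 to 1.34), with 4-OHT for Olig2 (-0.046 to 0.079), Gpr17 (-0.053 to 0.70), Cnp (-0.016 to 0.32), Fa2h (-0.27 to 0.56) and Cntn2 (-1.23 to 0.73), and for Fl/Fl against untreated cultures for Enpp6 (-0.0076 to 1.75), Bcas1 (-0.38 to 0.38), Nkx6-2 (-0.65 to 0.62), Ugt8a (-0.22 to 0.71) and Cntn2 (-0.44 to 1.55). The causes were not tested. Depth limits Mog and Ermn, with 3 and 8 counts over the untreated libraries.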
